A study of Homo sapiens with 6 samples.

Results

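Untreated NCI-H520 cells are described here from the 3 libraries that the labels place in the control group, out of 6 in the series. These cells were given phosphate-buffered saline (PBS) for 48 h. The other 3 libraries, of the same line given cisplatin, were not used. NCI-H520 is an established human line of lung squamous cell carcinoma with the genotype WT in the labels, grown in RPMI-1640 with 15% fetal bovine serum. Libraries were built from 1.5 µg of TRIzol-extracted total RNA with an ABclonal Fast RNA-seq kit. The series title concerns SOX2 and drug resistance. All libraries are of 1 cell line, and the labels do not say whether the replicates were separate cultures, so the spread between them may be technical.

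Squamous carcinoma of the lung is thought to arise from, or to resemble, the basal cells of the airway. Those cells are kept in their state by the transcription factors SOX2 and TP63 and make the keratins KRT5 and KRT14, while simple, single-layered epithelia make KRT8 and KRT18. Frequent copy number gains in this tumour type cover SOX2 and, in a subset that includes NCI-H520, FGFR1. Copy number was not measured here.

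Levels are the deposited TPM, an abundance that corrects for transcript length and adds to the same total in each library, and each mean is over the 3 PBS libraries with its SD (n = 3). Levels were classed as high (a mean of at least 100 TPM), moderate (10 to 100), low (1 to 10), trace (under 1) or at the floor (no library with more than 3 expected counts). A gene counted as detected where it reached 1 TPM in every library. These are levels in bulk RNA, in which fewer cells making a transcript and less of it per cell cannot be told apart. No second group was used, so no test was run; 2 genes are said to be separate where their TPM ranges over the libraries do not overlap.

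The libraries held 9121180, 15589897 and 14066008 expected counts. Detection reached 13147 genes, among them 11323 of 19864 nuclear protein-coding genes (57.0%), whose median over all of them, detected or not, was 3.33 TPM. Of these genes, 1275 were high, 6096 moderate, 4394 low, 2476 at trace levels and 5623 at the floor. Pairwise correlations of log2(TPM + 1) across the 19864 genes were near 0.994, which describes genes within libraries and not independent replicates. The biological coefficient of variation from edgeR was 9.77% over 14313 genes. PBS replicate 3 gave 83.2% of its TPM to nuclear protein-coding genes against 80.1% and 78.1% in replicates 1 and 2. Many genes below are highest in replicate 3, and the part of this share in those values was not tested.

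The line carried the SOX2 transcript at a high level without TP63, with simple keratins far above basal keratins. SOX2, a transcription factor of airway basal and stem cells, had 135, 151 and 182 TPM in PBS replicates 1, 2 and 3. Its mean of 156 ± 23.8 TPM placed it 801st of the 19864 protein-coding genes. TP63 had 0, 3 and 1 counts in the same libraries, at the floor, against 2520, 4844 and 4686 counts of SOX2. With TP63 set to a floor of 3 counts in each library, SOX2 was at least 684-fold higher per length in every library. The floor covers counting error only.

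The other markers were all high. KRT8, a keratin of simple epithelia, had 689, 640 and 734 TPM and a mean of 688 ± 47.2. FGFR1, a receptor tyrosine kinase for fibroblast growth factors, had 280, 244 and 361 TPM (295 ± 59.9). NKD1, which binds Dishevelled and dampens Wnt signalling, had 230, 212 and 282 TPM (241 ± 36.3). These markers ranked 156th, 387th and 482nd. NKD1 took more reads than KRT8, with 2958 ± 234 against 888 ± 30.3 CPM (counts scaled to the library total), because the scale of counts is not corrected for length and the mean estimated NKD1 transcript was 13840 bases long against 1762 for KRT8.

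Against the cell type in the labels, the markers were mixed: SOX2 was present, whereas TP63, KRT14, DSG3 and KRT17 were at the floor and KRT5 was low. Among 24 transcription factors listed for the squamous lineage, 13 were detected (54.2%, beside 57.0% of all protein-coding genes), and their median level was 1.58 TPM against 3.33. Only SOX2 was high. PITX1, a homeobox factor, followed at 93.9 ± 10 TPM, then the Krüppel-like factor KLF4 at 37.6 ± 6.88, the ectodermal factor TFAP2A at 23.7 ± 3.68 and KLF5 at 12.6 ± 3.48. Each of these 5 was separate from the next in the order. TFAP2A shares 11.4% of its exonic bases with an antisense gene.

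TP73, the relative of TP63, reached 4.91, 3.93 and 6.5 TPM. The grainyhead factors, which switch on epithelial barrier genes, were at 2.34 ± 1.03 TPM for GRHL1 and at the floor for GRHL3. GRHL2 had 0 counts in every library, which at 3 counts allows up to 0.16 to 0.275 TPM. TFAP2C, PAX9 and OVOL1 were also at the floor. The neighbours OVOL2 (6.05 ± 0.827), BCL11A (6.04 ± 1.31), TRIM29 (5.81 ± 0.776) and TP73 (5.11 ± 1.3) had overlapping TPM ranges.

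**Figure D1:**
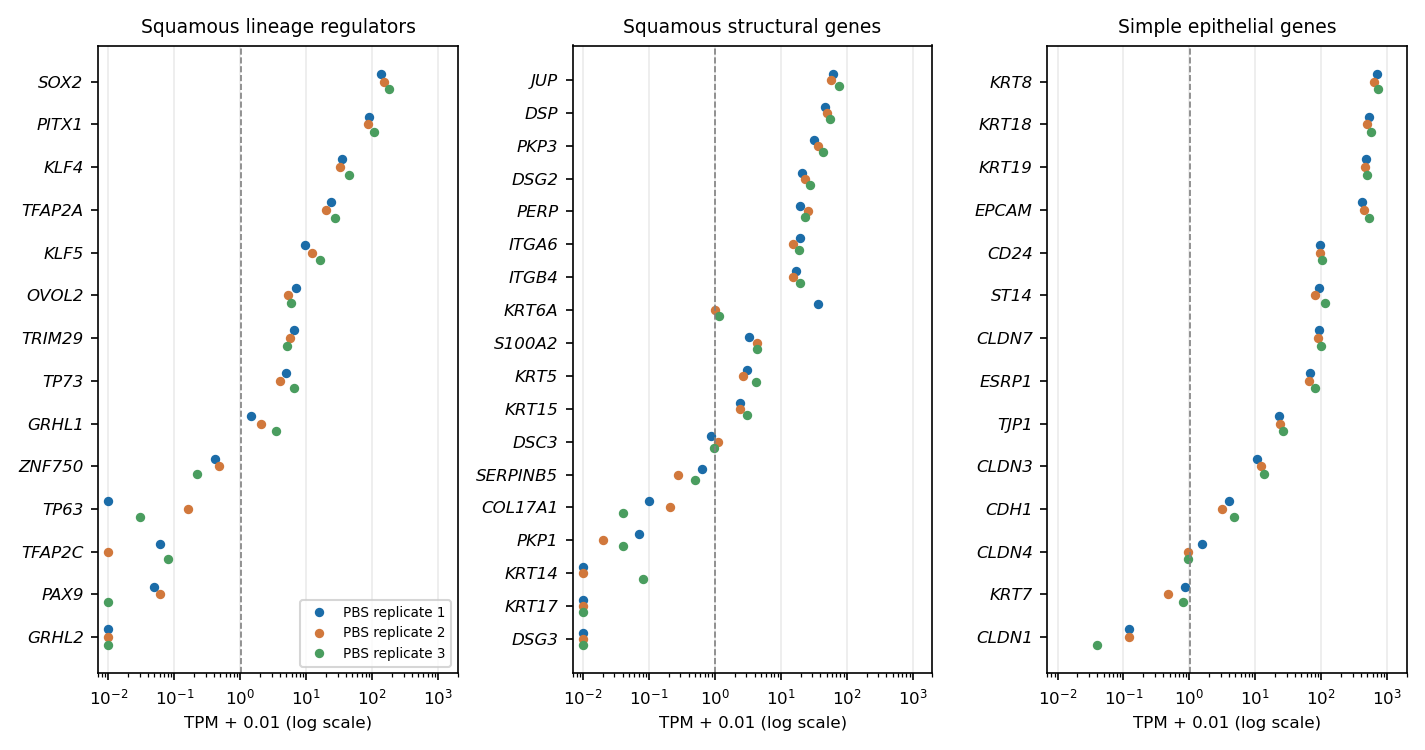
TPM + 0.01 (log scale) of squamous lineage regulators, squamous structural genes and simple epithelial genes; each point is 1 PBS library and the dashed line marks 1 TPM. SOX2 lies between 135 and 182 TPM while TP63 has at most 3 counts, and KRT8, KRT18 and KRT19 lie above every squamous structural gene shown.

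Of 37 structural genes of squamous cells, 19 were detected (51.4%, beside 57.0% of all protein-coding genes), 10 of them moderate and 0 high. The 10 include KRT6A, whose mean rests on an uncertain transcript length described below. Several desmosome parts were moderate: plakoglobin JUP (64.9 ± 9.65 TPM), desmoplakin DSP (51.5 ± 4.49), plakophilin PKP3 (37.1 ± 5.73) and the desmosomal cadherin DSG2 (23.9 ± 3.21). DSG2 is the desmoglein of simple as well as stratified epithelia. DSG3, the basal and suprabasal desmoglein of stratified epithelia, had 0 counts in every library, which at 3 counts allows up to 0.0386 to 0.0667 TPM. The transporter ABCC5, a 3q gene often raised with SOX2 in this tumour type, led the list at 70.1 ± 8.2 TPM, and PTHLH, the parathyroid hormone-related protein, stood at 40.5 ± 3.48. PTHLH shares 10.5% of its exonic bases with another gene on the opposite strand. Integrins ITGA6 (18 ± 2.23) and ITGB4 (17.4 ± 2.02), which together anchor basal cells at hemidesmosomes, were moderate, but their hemidesmosome partner COL17A1 was at a trace level with 3, 5 and 2 counts.

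Basal keratins were scarce. KRT5 had 3.06, 2.71 and 4.2 TPM from 50 to 88 counts, KRT15 2.41, 2.43 and 3.02 TPM, and KRT14 0, 0 and 1 counts. KRT17, KRT6B, CLCA2 and GJB6 had 0 counts in every library. KRT6A appears at 36.3, 1 and 1.16 TPM, but from 15, 29 and 27 counts: its estimated transcript length was 275 bases in replicate 1 and 2308 in the others. With 1 effective length per gene in all libraries, an alternative chosen after seeing the data, its mean was 1.01 TPM instead of 12.8. It then fell under the detection limit in replicate 1 (0.868 TPM), and 18 of the squamous structural genes were detected.

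Terminal differentiation genes of keratinocytes were mostly at the floor. Of 33 matched, 4 were detected (12.1%, beside 57.0% of all protein-coding genes). At the floor were 24, of which 16 had 0 counts in every library. The detected members were the cornified envelope protein CNFN (8.54 ± 1.4 TPM), KRT10 (6.3 ± 0.154), the transporter RHCG (1.6 ± 0.474) and the annexin ANXA1 (1.33 ± 0.0681), named after their values were seen. Involucrin (IVL) had 0, 0 and 1 counts. KRT1, the small proline-rich SPRR1B and SPRR2A, the calprotectin genes S100A8 and S100A9, and SERPINB3 and SERPINB4 had 0 counts in every library.

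Simple epithelial genes had a median of 4.48 TPM, beside 1.45 TPM for the squamous structural list and 3.33 for all protein-coding genes. Of 23 listed, 15 were detected (65.2%, beside 57.0% of all protein-coding genes), and 4 were high. These 4 were KRT8, its partner KRT18 (539, 488 and 560 TPM), KRT19 (485, 462 and 487 TPM) and the adhesion molecule EPCAM (412, 443 and 538 TPM). KRT8 was 1.30 ± 0.0189 times KRT18, and KRT18 shares 16.3% of its exonic bases with a stretch annotated to KRT8 on the opposite strand. KRT8 exceeded KRT5 by 212 ± 32.7 times, with ratios of 225, 236 and 175 in the 3 libraries. The sum of KRT8, KRT18 and KRT19 was 289 ± 38.6 times the sum of KRT5, KRT14, KRT15 and KRT17. KRT7, the simple keratin common in lung adenocarcinoma, reached only 0.707 TPM from 7 to 9 counts. Of the 17 type I and 20 type II keratins listed, which leave out the hair keratins, 5 and 3 were detected.

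Among the junctional genes, CLDN7 (94.2 ± 5.7 TPM), the glycoprotein CD24 (98.1 ± 2.62) and the protease ST14 (96.2 ± 16.1) were near the top of the moderate class. E-cadherin (CDH1) was low at 3.97, 3.11 and 4.72 TPM, and N-cadherin (CDH2) had 24.3, 23 and 30.8 TPM. CDH2 was 6.67 ± 0.649 times CDH1. The splicing factor ESRP1, which is typical of epithelial cells, nevertheless stood at 71.3 ± 8.28 TPM.

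Mesenchymal genes had a median of 5.28 TPM. Fibronectin (FN1) had 153, 151 and 197 TPM and vimentin (VIM) 151, 150 and 182 TPM, whose ranges overlap. VIM shares 12.4% of its exonic bases with its antisense gene. Of the 17 listed, 11 were detected (64.7%, beside 57.0% of all protein-coding genes). The repressors of E-cadherin were low or at trace levels: TWIST1 at 5.29 ± 0.879 TPM, ZEB1 at 3.6 ± 0.53, SNAI2 at 1.09 ± 0.303 and SNAI1 at 0.537, with ZEB2 at the floor. Markers of fibroblasts themselves were few. COL1A1 alone of 10 was detected (4.87 ± 0.979 TPM), a count that was 2 without PBS replicate 3, when THY1 is added (6, 7 and 5 counts). DCN and FAP each had at most 1 count in any library, and COL3A1 had 0.

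Of 28 transcription factors of other lung lineages, 14 were detected (50%, beside 54.2% of the squamous list). ETV5, an FGF-responsive ETS factor of the distal lung bud, led at 128 ± 20.1 TPM, followed by MYC (75 ± 12.2), SOX9 (50.8 ± 10.8), the helix-loop-helix inhibitor ID2 (50 ± 8.53) and the endodermal factor FOXA2 (45.2 ± 3.37). SOX9, ID2 and FOXA2 had overlapping ranges. NKX2-1, the alveolar lineage factor used to identify lung adenocarcinoma, was low at 1.76, 2.48 and 2.8 TPM, and FOXA2 exceeded it by 19.9 ± 4.24 times. The neuroendocrine factor NEUROD1 and the tuft cell factor POU2F3 had 0 counts in every library.

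Neuroendocrine markers were uneven, with 9 of 26 detected (34.6%, beside 57.0% of all protein-coding genes). UCHL1, a neuronal deubiquitinase, was high at 424, 451 and 459 TPM, and the granule protein CHGB had 116, 102 and 138 TPM. The synaptic vesicle sensor SYT1 (48.7 ± 3.75 TPM) and the neuronal enolase ENO2 (47.6 ± 8.31) were moderate. CHGA, the chromogranin most used in diagnosis, had only 0, 3 and 6 counts. INSM1 (3.38 ± 1.08 TPM), NCAM1 (9.43 ± 2.32) and SYP (1.72 ± 0.297) were low.

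Markers of other cell types were also counted, beside the 57.0% of all protein-coding genes that were detected. No endothelial marker of 10 and no immune marker of 14 was detected. CD14, a monocyte receptor, came nearest at 1.15, 0.93 and 1.08 TPM from 11 to 15 counts, and reached 1 TPM in every library without PBS replicate 2. Lysozyme (LYZ), at 0.61, 1 and 1.18 TPM, did so without PBS replicate 1. PTPRC, CD3E, MS4A1 and CDH5 had 0 counts in every library. Of the ciliated cell list 2 of 10 were detected and FOXJ1 had 2, 0 and 0 counts. In the alveolar and secretory list 4 of 20 were detected, led by the lipid transporter ABCA3 (25 ± 4.84 TPM), while SFTPC and SCGB1A1 had 0 counts. Intestinal and hepatic markers gave 1 of 17, with HNF4A at 0 counts.

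**Figure D2:**
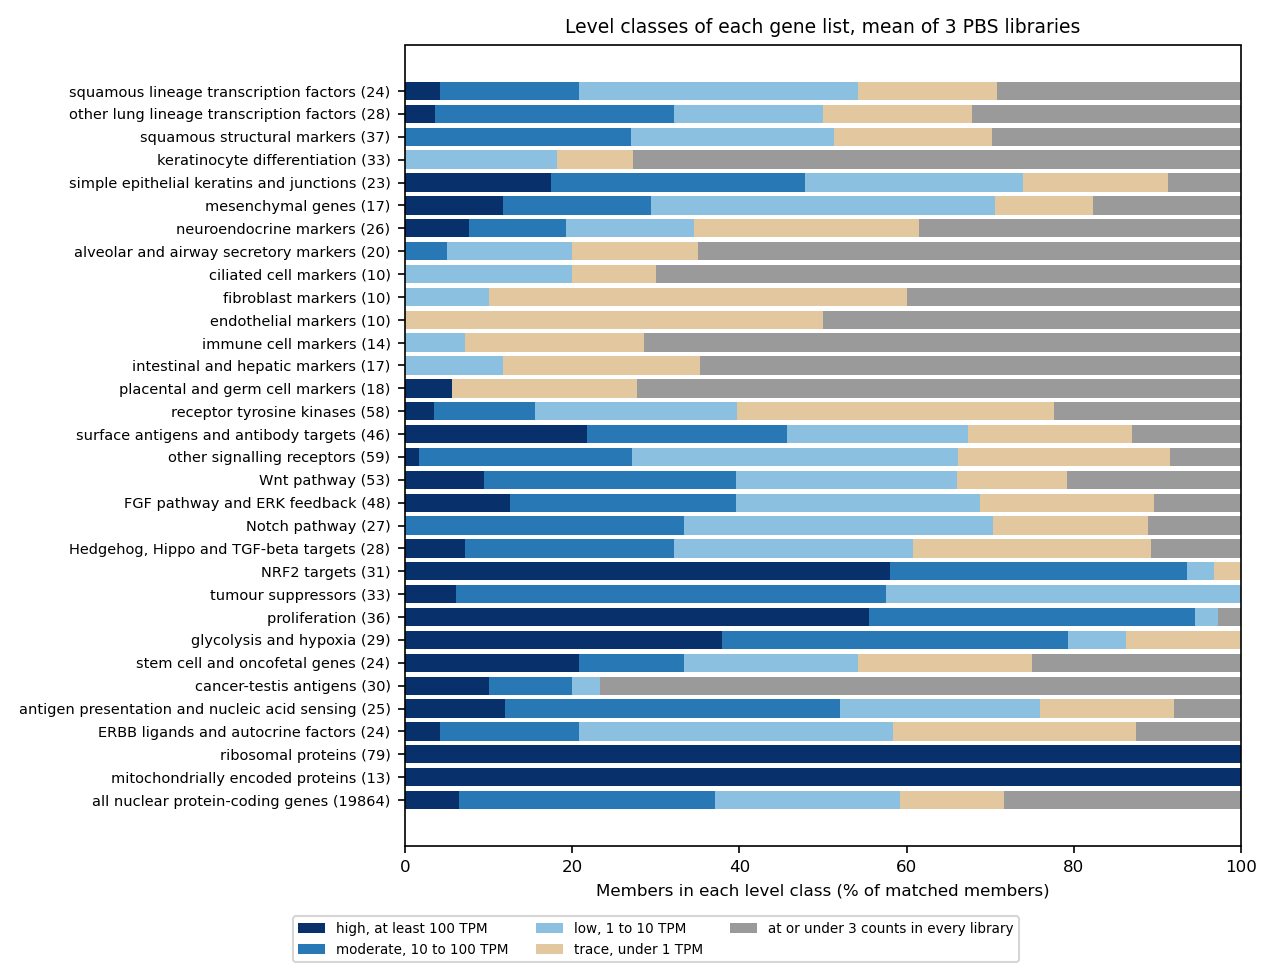
Share of the matched members of each gene list (number in brackets) in each level class, from the mean of 3 PBS libraries; bars add to 100%. Keratinocyte differentiation genes are at the floor for 24 of 33 members, whereas 30 of 31 members of the NRF2 list are detected and 18 are high.

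Homeobox and other patterning factors gave a second set of lineage genes. All 6 DLX genes, regulators of branchial arch and ectodermal derivatives, were detected, from DLX2 at 3.14 ± 0.565 to DLX3 at 67.1 ± 11 TPM. In the HOX clusters 8 of 11 HOXA, 2 of 10 HOXB, 7 of 9 HOXC and 5 of 9 HOXD genes were detected, beside 57.0% of all protein-coding genes, and the difference between clusters was not tested. They were led by HOXC10 at 34.3, 35.1 and 33.2 TPM. FOXQ1, a forkhead factor, was high at 159, 150 and 217 TPM, and RUNX1 at 108, 139 and 131 TPM. LHX1 (68.6 ± 20.9) and TBX3 (68 ± 10.5) were moderate. In the SOX family 9 of 19 were detected (47.4%, beside 57.0% of all protein-coding genes). SOX2 was 1.72 ± 0.315 times SOX13 (92.3 ± 19.3), with SOX4 at 73.8 ± 10.5, and the ranges of SOX2 and SOX13 did not overlap. The AP-1 member JUN had 60.9 ± 12.4 TPM and FOS 1.28 ± 0.636.

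The bases before the start sites of these genes are shown because the level classes differed in them. Windows of 250 bases came from RefSeq (GRCh38.p14) for the 11303 protein-coding genes with exactly 1 window in that table. A ratio of observed to expected CpG dinucleotides of at least 0.6 was found in 93.0% of high, 90.6% of moderate, 80.5% of low, 52.7% of trace and 22.4% of floor genes, and in 64.7% overall. The letters TATAAA, searched on both strands, occurred in 8.67% of high, 3.64% of moderate, 5.09% of low, 11.2% of trace and 21.1% of floor genes. In the keratinocyte differentiation list 0 of 24 windows reached the CpG ratio and 11 held TATAAA, whereas 53 of 53 ribosomal protein windows reached it. The lists did not all follow the level classes: 2 of 7 windows of simple epithelial genes reached the ratio, beside 9 of 18 of squamous structural genes. These are counts of letters in reference sequence, not measurements of binding or methylation. Shown 5′ to 3′ on the strand of each gene, with CG dinucleotides in capitals, are the windows of a present pair, SOX2 (chr3:181711675-181711924, plus strand) and CXCL14 (chr5:135578992-135579241, minus strand), and of a scarce pair, TP63 (chr3:189631139-189631388, plus strand) and KRT5 (chr12:52520395-52520644, minus strand). The TP63 window is that of the start given in the table, and other starts of the gene were not examined.
SOX2: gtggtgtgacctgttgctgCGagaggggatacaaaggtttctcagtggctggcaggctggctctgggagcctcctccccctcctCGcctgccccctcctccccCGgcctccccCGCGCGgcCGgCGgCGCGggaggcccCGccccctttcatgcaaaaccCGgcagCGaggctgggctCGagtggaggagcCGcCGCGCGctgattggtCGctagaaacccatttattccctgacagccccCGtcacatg
CXCL14: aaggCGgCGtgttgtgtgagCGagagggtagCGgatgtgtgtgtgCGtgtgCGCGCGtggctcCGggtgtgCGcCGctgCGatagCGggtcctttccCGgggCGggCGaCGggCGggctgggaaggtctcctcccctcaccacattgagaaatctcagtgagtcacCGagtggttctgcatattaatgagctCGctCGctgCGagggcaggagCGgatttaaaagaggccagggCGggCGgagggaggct
TP63: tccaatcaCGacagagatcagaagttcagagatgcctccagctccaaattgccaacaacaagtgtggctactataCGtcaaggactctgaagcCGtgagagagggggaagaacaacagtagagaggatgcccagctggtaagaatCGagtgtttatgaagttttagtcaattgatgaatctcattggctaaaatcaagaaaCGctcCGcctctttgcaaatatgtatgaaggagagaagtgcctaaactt
KRT5: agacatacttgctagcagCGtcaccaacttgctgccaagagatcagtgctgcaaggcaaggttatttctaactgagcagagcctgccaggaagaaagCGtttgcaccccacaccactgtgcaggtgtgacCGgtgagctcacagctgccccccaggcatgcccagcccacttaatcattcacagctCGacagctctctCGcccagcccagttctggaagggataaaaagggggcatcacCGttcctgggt
The SOX2 and CXCL14 windows hold 20 and 25 CpG dinucleotides with observed to expected ratios of 0.682 and 1.05. Those of TP63 and KRT5 hold 6 each, with ratios of 0.502 and 0.309.

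EEF1A1, the elongation factor that brings tRNAs to the ribosome, led the nuclear protein-coding genes at 13380 ± 663 TPM. All 79 ribosomal protein genes were high, with a median of 2251 TPM. PRDX1, a peroxiredoxin, had 6665 ± 342 TPM, the glycolytic enzyme GAPDH 5970 ± 190, and the ferritin heavy chain FTH1 5217 ± 181. For PRDX1, GAPDH and FTH1, 14.2% or more of the exonic sequence overlaps another gene (PRDX1 24.9% and FTH1 62.4%), partners that were at 1.65 to 30.1 TPM. The respiratory complex I subunit NDUFS5 (4334 ± 416) and the prolyl isomerase PPIA (3581 ± 154) were also among the 20 highest. The 10, 100 and 1000 most abundant nuclear protein-coding genes held 8.66%, 35.3% and 68.2% of the TPM of that class.

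CXCL14, a secreted chemokine, had 3305, 3325 and 3994 TPM. That was 1.38 ± 0.0764 times the level of beta-actin (ACTB) in the same libraries. Other abundant genes were picked after their values were seen. They were the neuronal tubulin TUBB2B (1246 ± 186 TPM), the creatine kinase CKB (867 ± 24.8), the cystatin CST1 (551 ± 18.1), the interferon-inducible IFI27 (528 ± 36.6) and the serine synthesis enzyme PHGDH (524 ± 51.2). The imprinted gene MEST (465 ± 54.1), the axon guidance protein DPYSL3 (435 ± 70.7), the aldehyde dehydrogenase ALDH3A1 (361 ± 19.9) and the mucin-like MUCL1 (299 ± 29.9) were high too.

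Noncoding entries weighed on the TPM scale more than on the count scale. The signal recognition particle RNAs RN7SL1, RN7SL2 and RN7SL3 with RN7SK took 4.03% of TPM but 0.0601% of counts. 3 chromosome 21 entries with identical values in each library took 4.38% of TPM. Mitochondrially encoded genes made up 6.58%, 8.27% and 7.02% of TPM, and 4.99% ± 0.971 of counts.

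FGFR1 was the highest of the listed receptor tyrosine kinases. Of 58 listed, 21 were detected (36.2%, beside 57.0% of all protein-coding genes), with a median of 0.362 TPM against 3.33. Only 2 were high, FGFR1 and PTK7, a catalytically inactive receptor of planar cell polarity, which had 164, 150 and 189 TPM. The ranges of FGFR1 and PTK7 did not overlap, and FGFR1 was 1.74 ± 0.144 times PTK7. RYK, a Wnt co-receptor (40.7 ± 4.89), and the ephrin receptor EPHB4 (34.9 ± 9.54) came next, with overlapping ranges. Among the FGF receptors, FGFR4 had 18.9 ± 3.53 and FGFR3 16.6 ± 3.36 TPM, so that FGFR1 was 15.6 ± 1.09 and 17.7 ± 0.42 times as high. FGFR2 was at a trace level with 4, 1 and 8 counts.

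EGFR, the kinase often raised in squamous tumours, had 0.44, 0.54 and 0.5 TPM from 36, 63 and 57 counts. FGFR1 exceeded it by 603 ± 138 times, with ratios of 636, 452 and 722. ERBB2 was low at 2.56 ± 0.448 TPM, ERBB3 at 2.78 ± 0.801 and the hepatocyte growth factor receptor MET at 4.98 ± 0.962. IGF1R reached 0.487 TPM from 21, 55 and 45 counts, and the insulin receptor INSR had 0, 9 and 8 counts. ERBB2, ERBB3, MET and EGFR were thus all low or at a trace level. AXL and ROS1 had at most 2 counts in any library.

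**Figure D3:**
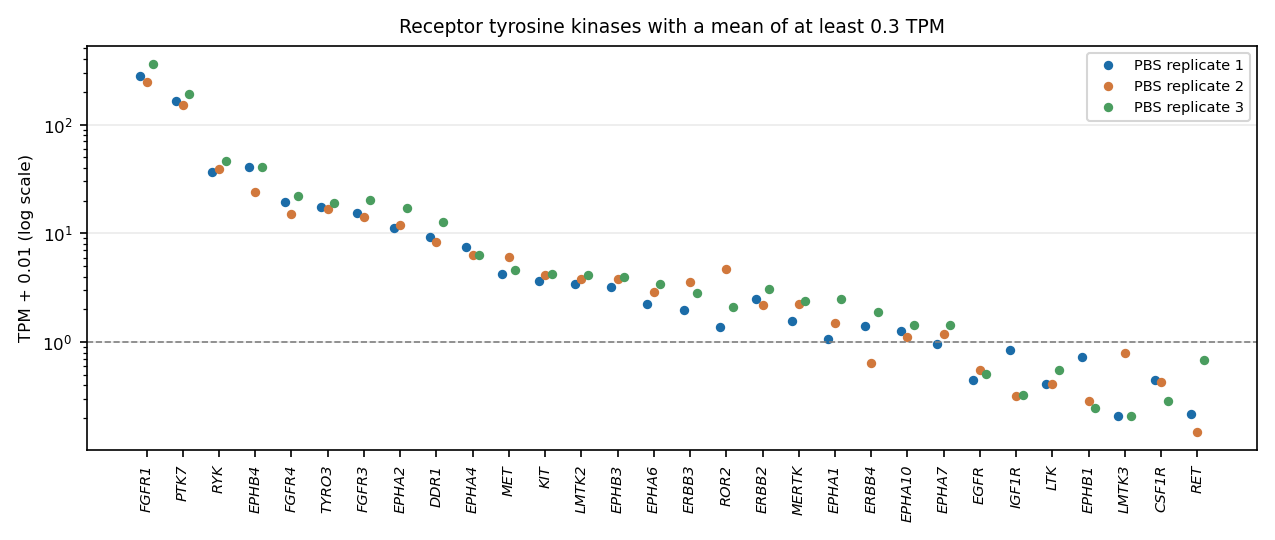
TPM + 0.01 (log scale) of receptor tyrosine kinases with a mean of at least 0.3 TPM, ordered by mean; each point is 1 PBS library and the dashed line marks 1 TPM. FGFR1 lies between 244 and 361 TPM, above PTK7 at 150 to 189, while EGFR is below 1 TPM in every library.

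Other surface proteins ranged widely. Detection covered 30 of 46 antigens and antibody targets (65.2%) and 38 of 59 further signalling receptors (64.4%), beside 57.0% of all protein-coding genes. Basigin (BSG) led at 796 ± 23.1 TPM, followed by the amino acid transporter pair SLC3A2 (561 ± 54.2) and SLC7A5 (552 ± 95), which form 1 complex, and the hyaluronan receptor CD44 (538 ± 53.8). The last 3 had overlapping ranges. The antibody target NECTIN4 was at the floor. CD276 (B7-H3) was at 69.7 ± 5.65 TPM and CD274 (PD-L1) at 0.963 from 9 or 10 counts. Among the signalling receptors the adhesion receptor ADGRG1 had 246, 197 and 312 TPM, and the chemokine receptor CXCR4 had 74.6, 72.2 and 82.2.

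In canonical Wnt signalling, secreted Wnts bind Frizzled and LRP receptors, beta-catenin escapes destruction, and with TCF or LEF factors it switches on target genes, several of which feed back to damp the pathway. Of 53 Wnt genes listed, 34 were detected (64.2%, beside 57.0% of all protein-coding genes). The median over the list was 3.28 TPM, close to the 3.33 of all protein-coding genes. Of the 5 high members, NOTUM, NKD1 and RNF43 are inhibitors, BAMBI is a pseudoreceptor and CTNNB1 is the effector of the pathway. NOTUM, a secreted enzyme that removes the lipid from Wnt proteins, had 418, 391 and 522 TPM and was 1.84 ± 0.021 times NKD1. CTNNB1, which encodes beta-catenin, had 232, 190 and 341 TPM, overlapping NKD1. The pseudoreceptor BAMBI (158 ± 18.6) and RNF43 (116 ± 18.9), a ligase that removes Frizzled from the surface, followed; RNF43 shares 20.3% of its exonic bases with an antisense gene at 12.8 TPM.

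Further feedback and target genes were moderate. The inhibitor APCDD1 had 65.8 ± 9.14 TPM, the scaffold AXIN2 56.7, 50.4 and 78.1 TPM, the RNF43 paralogue ZNRF3 38.5 ± 8.47, NKD2 26.7 ± 4.33 and the transcription factor SP5 29.4 ± 4.84. The DNA-binding partners TCF7 (58.6 ± 9.69) and LEF1 (42.8 ± 5.41) exceeded TCF7L2 (13.4 ± 1.78) without overlap. LGR5, a target and R-spondin receptor of intestinal stem cells, had 0 counts in every library, which at 3 counts allows up to 0.0933 to 0.161 TPM, while its relative LGR6 had 34.3, 28.7 and 37.9 TPM. DKK1, another secreted inhibitor, was at 0.983 TPM.

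Among the ligands, WNT11, which mainly acts outside the beta-catenin branch, was the highest at 24.9 ± 4.03 TPM, overlapping NKD2, then WNT5A at 8.97 ± 1.81. WNT3 had 1.89 ± 0.412 TPM, and WNT1 and WNT2 had 0 counts in every library. RSPO4 was the only R-spondin detected of the 4 (4.35 ± 0.486 TPM). At the receptors, LRP5 had 34.7 ± 6.7, FZD1 32.1 ± 7.51 and LRP6 10.5 ± 0.616 TPM. The letters CTTTGAT, the core bound by TCF and LEF factors, were searched on both strands of the 250-base windows and occur in 1.75% of all 11303. The share was 2.96% in floor genes, 1 of 27 windows of the whole Wnt list and 3 of 21 of the FGF list. The 1 match in the Wnt list was in SP5, starting 109 bases before its start. The SP5 window (chr2:170715087-170715336, plus strand, RefSeq GRCh38.p14) is shown with that match in capitals, since it is the only such match in the Wnt list.
SP5: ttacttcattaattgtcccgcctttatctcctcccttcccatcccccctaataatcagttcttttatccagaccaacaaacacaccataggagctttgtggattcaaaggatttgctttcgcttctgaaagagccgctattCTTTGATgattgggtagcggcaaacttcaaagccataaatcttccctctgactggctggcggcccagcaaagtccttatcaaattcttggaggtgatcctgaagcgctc
A match is a description of the letters and no measurement of binding.

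Fibroblast growth factors bind FGF receptors together with heparan sulphate, or with a klotho co-receptor for FGF19, and signal through ERK, whose target genes include its own inhibitors. Of 48 genes listed, 32 were detected (66.7%, beside 57.0% of all protein-coding genes), 6 of them high. The median over the list was 5.17 TPM against 3.33, and the difference was not tested. At the ligand end, FGF3 had 355, 339 and 352 TPM and FGF19 had 229, 219 and 275 TPM. FGF4 was low at 4.63 ± 0.32 TPM, which FGF3 exceeded by 75.6 ± 5.88 times. FGF9 (7.38 ± 2.05) and FGF2 (1.4 ± 0.164) were also low. KLB, the co-receptor for FGF19, was at a trace level with 7, 5 and 2 counts. The decoy-like receptor FGFRL1 had 232, 188 and 276 TPM, and its range overlapped those of FGFR1 and FGF19.

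Downstream, the ETS factor ETV5 (119, 114 and 151 TPM) was high and ETV4 moderate at 26.3 ± 4.16. The ERK phosphatase DUSP6 had 68.9, 61.6 and 81.4 TPM and shares 40.5% of its exonic bases with a gene on the opposite strand at 3.61 TPM. The Sprouty inhibitors SPRY4 (25 ± 3.9) and SPRY2 (17.4 ± 4.26) were moderate, and the growth-factor-induced PHLDA1 was high at 106 ± 13.5. DUSP5 and FOSL1 were at trace levels, at 0.253 and 0.167 TPM.

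**Figure D4:**
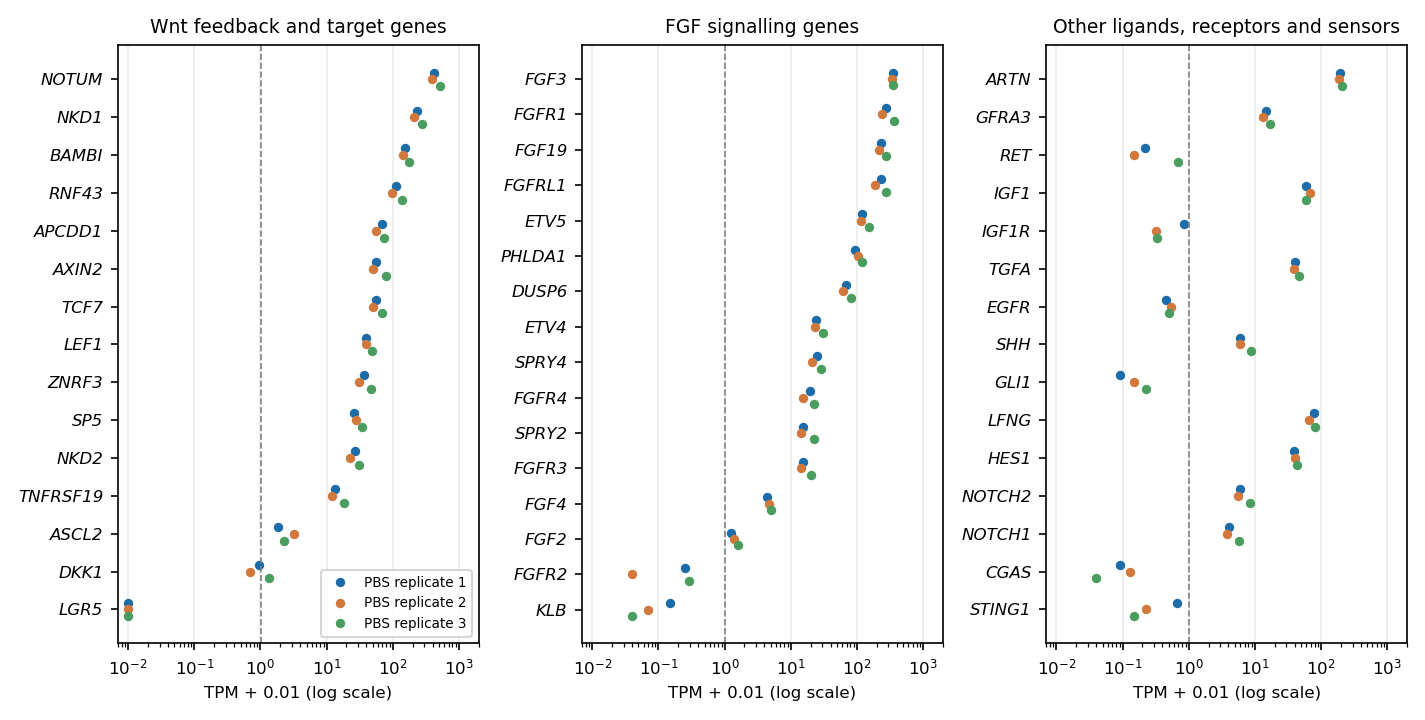
TPM + 0.01 (log scale) of Wnt feedback and target genes, FGF signalling genes, and other ligands, receptors and sensors; each point is 1 PBS library and the dashed line marks 1 TPM. NOTUM and NKD1 lead the Wnt panel, FGF3 lies between 339 and 355 TPM, and ARTN, IGF1, TGFA and SHH each lie above the receptor or target drawn below them. The Hedgehog genes PTCH1 and SMO, which were detected, are not drawn.

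FGF3, FGF4, FGF19 and CCND1 are neighbours on chromosome 11. In the 500 kb on either side of CCND1, a region added after seeing the data, 7 of 9 protein-coding genes were detected. Over all protein-coding genes the share was 57.0%, and the difference was not tested. The 7 include CCND1 itself, and FGF3 and FGF19, whose levels were known when the region was added. FGF3 (69809969 to 69819024) and FGF19 (69698232 to 69704642) were high, the cell cycle gene CCND1 (69641087 to 69654474) was moderate at 70, 72.8 and 84.9 TPM, and LTO1, which overlaps CCND1 by 10.3% of the exonic bases of CCND1, had 19.2 ± 2.33 TPM. The others were lower: FGF4, TPCN2 (4.21 ± 0.122) and the chloride channel ANO1 (3.15 ± 0.645) were low, and MYEOV and SMIM38 were at the floor.

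Around FGFR1 (chromosome 8, 38400215 to 38468834, minus strand), 12 of 16 protein-coding genes within 500 kb were detected, beside 57.0% of all protein-coding genes. The 12 include FGFR1 itself, which had been set as a marker. The difference from 57.0% was not tested. The translation repressor EIF4EBP1 was the highest at 804, 757 and 739 TPM, and LSM1, an mRNA decay factor, had 201 ± 2.65 TPM. NSD3, a histone methyltransferase next to FGFR1, had 55.8 ± 5.49 TPM, ASH2L 54.3 ± 5.24, TACC1 53.6 ± 4.24 and the phosphatase PLPP5 50.4 ± 4.83. Genes in the same region without appreciable transcript were ADRB3 and GOT1L1, with 0 counts, and STAR at 0.163 TPM. LETM2, which overlaps FGFR1 on the other strand, was at 4.9 ± 0.789 TPM. SOX2 (chromosome 3, 181711924 to 181714436) was the only protein-coding gene within 500 kb of itself.

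For some ligands of other pathways, picked after their values were seen, levels are given beside those of a receptor or target. ARTN, which signals through GFRA3 and RET, had 194, 185 and 211 TPM, 13.2 ± 0.652 times GFRA3 (15 ± 1.74), while RET had 6, 10 and 16 counts. IGF1 had 58.6, 69.1 and 60 TPM beside trace IGF1R, and the EGFR ligand TGFA 40.7, 39.5 and 46.2 TPM beside trace EGFR. SHH reached 5.98, 5.92 and 8.79 TPM, and its target GLI1 had 2, 6 and 4 counts. The Hedgehog pathway was not absent below the ligand: PTCH1 was low at 3.01 to 3.92 TPM and SMO moderate at 13.05 to 17.3. No protein was measured, and a transcript level does not give the amount of receptor.

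Targets of BMP, Notch and Hippo signals differed from each other. The BMP-responsive inhibitors ID3 (683, 623 and 699 TPM) and ID1 (307, 341 and 345 TPM) were high, with the ligands BMP4 (69.5 ± 10.8) and BMP7 (44.1 ± 4.24) moderate. In the Notch list 16 of 27 were detected (59.3%, beside 57.0% of all protein-coding genes) and 0 were high. The list was led by the receptor-modifying LFNG (75.4 ± 7.92), HES6 (42.7 ± 4.06) and HES1 (40.9 ± 1.85). The Notch receptors NOTCH1 (4.54 ± 1.09) and NOTCH2 (6.67 ± 1.58) were low, as were JAG1 (1.5 ± 0.296) and JAG2 (1.98 ± 0.269). YAP1 (24.6 ± 3.98) and WWTR1 (16.6 ± 3.64) were moderate and their partners TEAD1 to TEAD4 were all detected, but their targets CCN1 (1.22 ± 0.557) and CCN2 (0.503) were low or at a trace level.

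NRF2 is the transcription factor of the oxidative stress response, held down by KEAP1. The list of its targets also holds NFE2L2 and KEAP1 themselves. Its median of 159 TPM was the highest of the lists apart from the ribosomal and mitochondrial ones. Of its 31 members, 30 were detected (96.8%, beside 57.0% of all protein-coding genes) and 18 were high. After PRDX1 and FTH1 came the glutathione transferase GSTP1 (1253 ± 185) and the aldo-keto reductases AKR1C1 (905, 918 and 924 TPM), AKR1C3 (689 ± 35.8) and AKR1C2 (632 ± 40.3). These 3 reductases are close paralogues whose reads the counting could divide among them. NQO1 had 634, 648 and 672 TPM and the gastrointestinal glutathione peroxidase GPX2 655, 624 and 642 TPM. The exception was AKR1B10, at 0.5 TPM from 6, 7 and 2 counts, and HMOX1 was moderate at 10.4 ± 1.24. KEAP1 had 81.5 ± 11.9 and NFE2L2, the gene of NRF2, 36.7 ± 4.77 TPM.

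Proliferation genes were detected in 35 of 36 cases (97.2%, beside 57.0% of all protein-coding genes) with a median of 109 TPM. CDC20, the activator of anaphase, led at 405 ± 38.1, and the proliferation antigen MKI67 had 111, 102 and 125 TPM. CCND2 alone was at the floor, beside CCND1 at 75.9 ± 7.92 and CCND3 at 26.6 ± 2.86. All 33 genes of the tumour suppressor list were detected. CDKN2A, the locus of p16 and ARF, was high at 146, 161 and 188 TPM, and the cell cycle inhibitor CDKN1A low at 4.65, 3.35 and 4.96. The chromatin remodelling ATPase SMARCA4 had 140 ± 15.5 TPM, 7.68 ± 0.913 times its paralogue SMARCA2. RB1 was moderate at 11.4, 16.5 and 21.8 TPM.

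Antigen genes showed sharp contrasts. Of 30 cancer-testis antigens, normally confined to germ cells, 6 were detected (20%, beside 57.0% of all protein-coding genes). A further 19 had 0 counts in every library. MAGEA4 had 230, 196 and 284 TPM and PRAME 113, 104 and 127. MAGEA3 (120 ± 17.1), MAGEA6 (89.3 ± 15.4) and MAGEA2 (19.1 ± 6.99) are related genes of 1 family, so their separate values are uncertain. In antigen presentation, B2M had 421 ± 17.6 TPM and HLA-C 191 ± 26.3, while HLA-B was 16.4, 17.2 and 20.9 TPM. HLA-C was 10.6 ± 1.29 times HLA-B, although reads of these polymorphic paralogues can be assigned to each other. The cytosolic DNA sensor CGAS had 2, 5 and 1 counts and its adaptor STING1 3, 2 and 3.

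Between the 3 libraries, most levels were close. Among the 7371 protein-coding genes that averaged 10 TPM or more, the median coefficient of variation (CV) was 12% for TPM and 8.14% for CPM. The CV of TPM was over 40% for 56 genes, and in 39 of these the estimated transcript length differed more than 1.5-fold between libraries. RAD51D, a recombination protein, had 4.9, 5.18 and 118 TPM from 146, 287 and 238 counts, with estimated lengths of 3809, 4077 and 384 bases. The histone methyltransferase gene KMT2C had 15.2, 69.7 and 11.7 TPM from 853, 1742 and 1265 counts. The histone gene H4C15 differed in counts too, with 154, 34.3 and 102 expected counts in libraries of 9121180, 15589897 and 14066008.

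**Figure D5:**
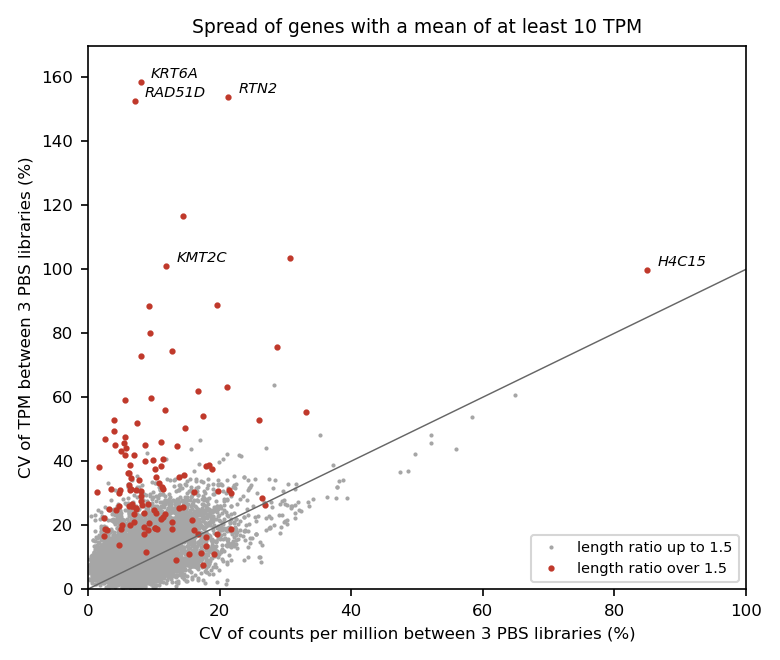
CV of TPM against CV of CPM over 3 PBS libraries (both %) for protein-coding genes that averaged 10 TPM or more; red points have an estimated length that differs more than 1.5-fold between libraries and the line marks equal values. KRT6A, RAD51D and RTN2 have CVs of TPM above 150% but CVs of CPM under 22%.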

How the data were processed

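RNA of 3 PBS libraries was described; the cisplatin libraries were not analysed here. The authors deposited 1 table per library with expected counts (estimates per gene that can hold fractions), TPM and FPKM values, both scaled by transcript length, and estimated lengths, per the file headers. Alignment used STAR 2.7.9 and GRCh38 (hg38), per the submitters' processing notes. The quantifier, its annotation and strand setting, and any RNA selection were not given in the sources used here, so reads of overlapping or antisense genes cannot be told apart. FPKM as deposited served only as an alternative.

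Of 61552 genes listed, 61399 had a symbol and 58352 a position and biotype in GENCODE 29, on the same build; the files' own annotation may differ. Gene lists (31, with 931 entries, 930 matched) and 38 symbol families were taken whole. The members and lists were chosen with earlier results of these data known, and they support no test. Named genes were the 5 markers and the other key genes of the lists, the 25 most abundant nuclear genes, the 5 most abundant members of each list and family, the 10 protein-coding genes with the largest CV, and the genes within 500 kb of SOX2 and FGFR1. Genes named outside this rule were chosen after their values were seen. Some genes that the rule takes are not reported here. The lists also cover glycolysis (24 of 29 detected), stem cell and oncofetal genes (12 of 24), ERBB ligands and autocrine factors (12 of 24), Hedgehog, Hippo and TGF-beta targets (16 of 28), placental and germ cell markers (1 of 18), antigen presentation and sensing (18 of 25) and mitochondrially encoded proteins (13 of 13).

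Means and SD were computed in Python 3.11.15 (pandas 2.3.3). Rounded expected counts gave the dispersion in edgeR 4.0.16 (R 4.3.3, filterByExpr, intercept only), which was tested on simulated data. No 2 libraries held the same counts, and chi-square per degree of freedom between them was 7.61 to 20.6. Total counts set the precision, and the floor is 3 expected counts per library. Alternatives were other detection limits and pseudocounts, TPM rescaled over protein-coding genes, FPKM, CPM, the median, and leaving out each library.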

Additional observations from a re-analysis of the deposited data

How the results depend on the processing

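No paired analysis was possible because the results come from no test and 1 group was used. The count of detected genes stayed within 1.5 times 13147 under every alternative run, from 9361 at 5 TPM to 14680 at 0.5 TPM. Rescaling TPM over nuclear protein-coding genes gave SOX2 193, NKD1 299, FGFR1 365 and KRT8 854 TPM. The 10 most abundant nuclear genes of any kind, noncoding entries among them, held 12.1% of TPM. The 10 most abundant protein-coding genes, a different set, held 8.66% of the rescaled TPM. Ranked by CPM, the 10 highest nuclear genes held 6.66% of CPM. Mitochondrial genes took 4.99% of counts in place of 7.29% of TPM. As deposited FPKM, KRT8 stood at 627. With detection at 5 TPM, 8 of the 13 detected squamous transcription factors and 11 of the 19 structural genes remained.

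Median log2(TPM + 1) of a list depends on the pseudocount, because many members lie near 0. With a pseudocount of 0.1, and then with detected members only, the median was 0.74 and 2.82 in place of 1.37 for squamous transcription factors, 0.63 and 3.79 in place of 1.29 for structural genes, 2.20 and 6.18 in place of 2.46 for simple epithelial genes, 1.76 and 4.31 in place of 2.10 for Wnt genes, and 2.40 and 4.15 in place of 2.63 for FGF genes. Leaving out each library in turn gave 1.06 to 1.36 for structural genes, the lowest without PBS replicate 1, and 2.08 to 2.20 for Wnt genes, the highest without PBS replicate 2. The mean of TP63 stayed at or under 0.085 TPM, and its highest single value was 0.15 TPM in PBS replicate 2. Levels near the floor of 3 counts are limited by depth, and an order among such genes was not detectable.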

Other observations

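The glycolysis list had 24 of 29 members detected (82.8%, beside 57.0% of all protein-coding genes), 11 of them high. Enolase ENO1 (1724 ± 130 TPM; SD, n = 3), pyruvate kinase PKM (1422 ± 143) and aldolase ALDOA (1021 ± 34.7) led after GAPDH. The glucose transporter SLC2A1 was high at 152, 134 and 219 TPM, while the hypoxia-induced carbonic anhydrase CA9 had 6, 0 and 2 counts and EGLN3 1, 5 and 5. VEGFA, another hypoxia target, was moderate at 14.7 ± 4.2 TPM.

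Stem cell and oncofetal genes were detected in 12 of 24 cases (50%, beside 57.0% of all protein-coding genes). The growth factor midkine (MDK) had 217, 243 and 265 TPM and the architectural protein HMGA1 167, 155 and 185, whereas its relative HMGA2 had 4, 12 and 9 counts. ALDH3A1 exceeded ALDH1A1 (2.64 ± 0.167 TPM) by 137 ± 14.2 times. IGF2 was at a trace level with 5, 3 and 3 counts, and H19 had 0 counts in every library. Of 20 semaphorins, a family of guidance ligands, 12 were detected (60%, beside 57.0% of all protein-coding genes). Their median was 2.56 TPM against 3.33, and SEMA6A was high at 149, 133 and 187 TPM. Metallothionein MT2A had 464, 476 and 415 TPM.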
